A study of Mus musculus with 5 samples.

Results

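Interferons are secreted signals of the antiviral response, and the genes described here are 9 members of that pathway, taken by symbol from the 24421 genes of the deposited tables. All 9 were listed in every library. They comprise 4 signal transducers and transcriptional regulators (Stat2, Irf9, Irf7, and Irf1) and 5 antiviral effectors (Isg15, Ifit1, Ifit3, Bst2, and Ifitm3). RNA-seq was performed on 5 mouse libraries, with 1 library per group. MEFs were fibroblasts from mid-gestation CF-1 embryos, grown in 10% FBS. iPSCs and V6.5 cells, which are embryonic stem cells (mESCs), were grown on gelatin with LIF and, per the labels, without feeder cells, although the study's methods also describe culture on feeder cells. The other libraries were from V6.5 cells expressing a non-targeting control shRNA (NTC) or an shRNA against Gldc (shGldc), and Gldc encodes the glycine decarboxylase of the glycine cleavage system. The labels name no interferon treatment and no virus infection. Each group stands for a single library, and strain, culture medium, and cell type cannot be told apart between MEFs and the stem cells. With 1 library per group, no difference here has a replicate check, and no p-value is given.

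Type I interferon binds the receptor pair Ifnar1 and Ifnar2, whose kinases Jak1 and Tyk2 phosphorylate Stat2. Stat2 joins Irf9 in the complex that switches on interferon-stimulated genes through a DNA element termed the interferon-stimulated response element (ISRE), and Irf7 then amplifies interferon production. Type II interferon acts mainly through another element, the gamma-activated site (GAS). Pluripotent stem cells are known for a weak interferon response and for expressing a subset of interferon-stimulated genes without interferon, whereas fibroblasts respond strongly.

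The promoters of the 9 genes were read to show which of them carry the letters of these elements. The sequences come from RefSeq on build GRCm38.p6, as windows of 250 bases before to 50 bases after each annotated start site, and all 9 genes were matched. The ISRE was searched as GAAA, any 2 bases, and GAAA, or on the other strand TTTC, any 2 bases, and TTTC. The GAS was searched as TTC, any 3 bases, and GAA, which reads alike on both strands. An ISRE match was present in 6 of the 9 genes, against 3.44% of all 32841 promoters, and a GAS match in 3 of the 9, against 8.3%. ISRE matches were present for Isg15, Ifit1, Ifit3, Stat2, Bst2, and Ifitm3, and no ISRE match was in the windows of Irf1, Irf7, and Irf9. GAS matches were present for Irf1, Bst2, and Ifitm3. The lines below show 30 bases, 5′ to 3′ on the strand of the gene, for the effectors that were near 0 in stem cells (Isg15, Ifit1, and Ifit3), for Stat2 and Bst2, which were not, and for Irf1, which had a GAS match and no ISRE match. Capitals mark the matches, ISRE in the first 5 lines and GAS in the last.
Isg15: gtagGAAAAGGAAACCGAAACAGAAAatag
Ifit1: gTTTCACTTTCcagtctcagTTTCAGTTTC
Ifit3: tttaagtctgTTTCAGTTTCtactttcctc
Stat2: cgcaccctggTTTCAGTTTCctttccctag
Bst2: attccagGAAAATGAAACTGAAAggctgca
Irf1: aacagcctgatTTCCCCGAAatgatgaggc
These windows lie at chr4:156200871-156200900 (minus strand), chr19:34640784-34640813 (plus), chr19:34583397-34583426 (plus), chr10:128270266-128270295 (plus), chr8:71537580-71537609 (minus), and chr11:53769913-53769942 (plus), in the order printed. Neighbouring matches among the 3 of Isg15 overlap, as do the 2 of Bst2, the first of which also overlaps its GAS match. In Ifit3, 1 of its 2 ISRE matches lies in the window shown. The Ifitm3 matches, 2 of the ISRE and 1 of the GAS, lie at and after the start site and are not printed. A match describes letters only and is not evidence that a factor binds there. Stat2 and Bst2, with FPKM above 6 in every library, hold the same letters as Isg15 and the Ifit genes, which were near 0 in stem cells.

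Expression levels are given as FPKM, a fragment count scaled by transcript length and by the depth of the library, so levels of different genes can be compared per length. MEFs, iPSCs, and untreated V6.5 cells share 1 deposited table, and NTC and shGldc share another that was made separately. A log2 ratio is the difference of log2(FPKM + 0.1), which understates the change of low genes. A gene was kept in a comparison if either of its libraries reached 1 FPKM, and a ratio of at least 2-fold was called higher or lower. Sequencing depth, estimated from the smallest steps between low values, was 22100000 to 29000000 fragments per library, and that of NTC and shGldc is uncertain by a factor of 2. In NTC, a step of double the size, outside the range searched, matched 32 values against 17. In shGldc it matched 25 against 27. Fragment numbers given below for NTC and shGldc may thus be too high by a factor of 2, and limits for a listed 0 too low. The shGldc column is headed sh3 in its table and was assigned as the only column there beside NTC. Gldc checked the labels of the knockdown. Its FPKM was 74.7 in NTC and 2.07 in shGldc, 36-fold lower, beside 0.123 in MEFs, 70.8 in iPSCs, and 59.7 in untreated V6.5 cells. The labelled cell types carried their defining markers. The 10 pluripotent cell markers summed to 25.4 FPKM in MEFs and to between 3844.8 and 7097.6 in the 4 stem cell libraries. The 10 fibroblast markers summed to 7261.7 FPKM in MEFs and to between 6.73 and 53.5 in the stem cell libraries.

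**Figure D1:**
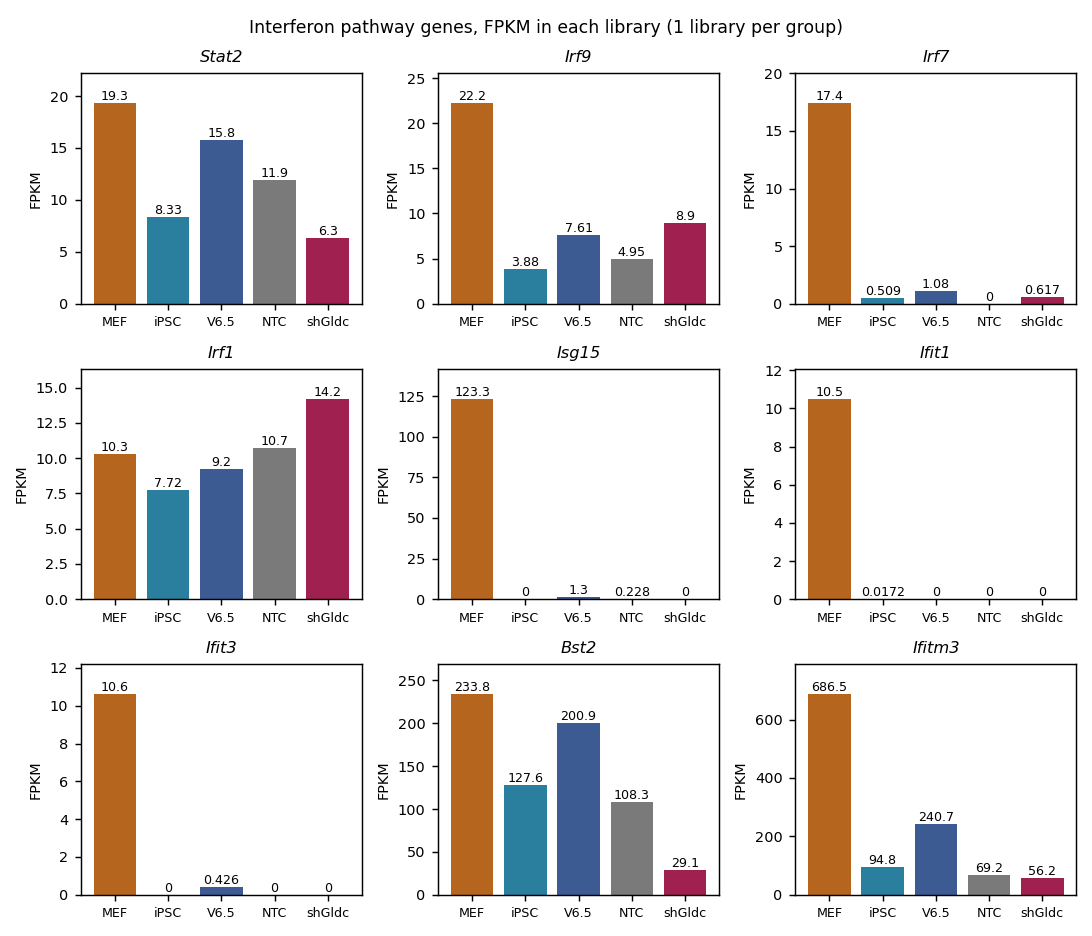
FPKM of each of the 9 interferon pathway genes (1 panel per gene, linear axes from 0 that differ between panels), with 1 bar for each library and its value printed above. Isg15, Ifit1, Ifit3, and Irf7 were at 1.3 FPKM or lower in all 4 stem cell libraries, whereas Stat2, Irf1, Irf9, Bst2, and Ifitm3 were present in every library.

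The 4 signal transducers and regulators differed between MEFs and stem cells to unequal degrees. Stat2, which brings an activation domain to the complex, was at 19.3 FPKM in MEFs, 8.33 in iPSCs, 15.8 in untreated V6.5 cells, 11.9 in NTC, and 6.3 in shGldc. MEFs and untreated V6.5 cells were close to each other, and shGldc was lowest. The gene is at chr10:128270559-128292849 on the plus strand of mm10.

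Irf9, the DNA-binding subunit of the same complex, was at 22.2 FPKM in MEFs, 3.88 in iPSCs, 7.61 in untreated V6.5 cells, 4.95 in NTC, and 8.9 in shGldc. MEFs were above all 4 stem cell libraries, of which shGldc was highest and iPSCs lowest. Irf9 (chr14:55603571-55610030, plus strand) overlaps Rnf31 on the same strand, so some fragments could be assigned to either gene.

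Irf7, the regulator that amplifies interferon production and is itself induced by interferon, was at 17.4 FPKM in MEFs, 0.509 in iPSCs, 1.08 in untreated V6.5 cells, 0 in NTC, and 0.617 in shGldc. It was high in MEFs alone, and the stem cell values correspond to an estimated 21.6 fragments in iPSCs, 51.2 in untreated V6.5 cells, and 34.0 in shGldc. These estimates take the length of 1 transcript, 1916 nt, of the 13 annotated for Irf7, so they are approximate. Irf7 (chr7:141262706-141266481, minus strand) overlaps Phrf1 on the opposite strand, and the strand setting of the authors' quantification is not given in the sources used here, so its reads and those of Phrf1 cannot be told apart with certainty.

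Irf1, a regulator induced mainly by type II interferon, was at 10.3 FPKM in MEFs, 7.72 in iPSCs, 9.2 in untreated V6.5 cells, 10.7 in NTC, and 14.2 in shGldc. No library stood apart, and the highest was less than 2-fold above the lowest. Its locus (chr11:53770014-53778374, plus strand) overlaps the opposite-strand gene Gm17334.

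The effectors fell into a group near 0 in stem cells and a group that stayed abundant. Isg15, a ubiquitin-like protein attached to other proteins during the interferon response, was at 123.3 FPKM in MEFs, 0 in iPSCs, 1.3 in untreated V6.5 cells, 0.228 in NTC, and 0 in shGldc. The value in untreated V6.5 cells corresponds to about 24.3 fragments. That in NTC corresponds to about 5 (4.99) and is close to the limit of that library. For the libraries listed at 0, counting error alone allows up to 3 fragments, or 0.179 FPKM in iPSCs and 0.138 in shGldc. Isg15 is at chr4:156199424-156200818 on the minus strand.

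Ifit1, which binds viral RNA that lacks host-type cap methylation, was at 10.5 FPKM in MEFs, 0.0172 in iPSCs (about 1 fragment), and 0 in untreated V6.5 cells, NTC, and shGldc. Ifit3, which stabilizes Ifit1 in human cells, was at 10.6 FPKM in MEFs, 0.426 in untreated V6.5 cells (about 18.3 fragments), and 0 in iPSCs, NTC, and shGldc. Both genes were expressed in MEFs and were at or near 0 elsewhere. They lie close together on the plus strand, Ifit3 at chr19:34583531-34588731 and Ifit1 at chr19:34640871-34650009. Of the 50-nt stretches of Ifit3 transcripts, 51.2% also occur in its neighbour Ifit3b, so its value is uncertain, and Ifit3b had the same order of libraries (4.25 FPKM in MEFs, 0.121 in untreated V6.5 cells, and 0 in the others).

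Bst2 (tetherin), a membrane protein that holds budding virus particles at the cell surface, was at 233.8 FPKM in MEFs, 127.6 in iPSCs, 200.9 in untreated V6.5 cells, 108.3 in NTC, and 29.1 in shGldc. It was abundant in all 5 libraries and lowest in shGldc. Bst2 is at chr8:71534255-71537456 on the minus strand, with no overlapping gene and no shared 50-nt stretch. Ifitm3, a membrane protein that blocks virus entry from endosomes, was at 686.5 FPKM in MEFs, 94.8 in iPSCs, 240.7 in untreated V6.5 cells, 69.2 in NTC, and 56.2 in shGldc. It was the most abundant of the 9 genes in MEFs, untreated V6.5 cells, and shGldc, and Bst2 was in iPSCs and NTC. Of its 50-nt stretches (chr7:141009586-141010770, minus strand), 10.0% occur in other genes, among them its paralog Ifitm2.

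The comparison of stem cells with MEFs asked how the pluripotent and somatic profiles differ. In untreated V6.5 cells, 6 members had levels at least 2-fold lower than in MEFs and none was higher. Of all 12840 genes kept, 23.3% were that much lower and 30.3% higher. The 6 were Ifit1, Isg15, Ifit3, Irf7, Irf9, and Ifitm3. Of those detected in both libraries, Isg15 was 94.6-fold lower by FPKM (log2 ratio -6.46), Ifit3 25-fold (-4.35), Irf7 16-fold (-3.88), Irf9 2.92-fold (-1.53), and Ifitm3 2.85-fold (-1.51). Ifit1 was listed at 0, so no fold is given. Ifit1 and Ifit3 were kept through MEFs alone, so both could only be lower. Stat2 (-0.28), Bst2 (-0.22), and Irf1 (-0.17) were within 2-fold. With NTC in place of untreated V6.5 cells, across the tables, Bst2 was also at least 2-fold lower (-1.11), and Irf1 turned to 0.05. The median log2 ratio of the 9 genes was -1.53, against 0.25 for all kept genes.

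In iPSCs, 7 of the 9 genes were at least 2-fold lower than in MEFs and none was higher, against 21.3% and 31.5% of 13032 genes. Stat2 joined the 6 at 2.31-fold lower (-1.20). Irf7 was 34.2-fold lower (-4.84), Ifitm3 7.24-fold (-2.86), and Irf9 5.73-fold (-2.49). Isg15 and Ifit3 were listed at 0 and Ifit1 at about 1 fragment, so no fold is given for them. These genes and Irf7 were kept through MEFs alone, so they could only be lower. Bst2 (-0.87) and Irf1 (-0.42) were within 2-fold, although Bst2 passed the 2-fold line, at -1.18, once every library was scaled to an equal FPKM sum. The median of the 9 genes was -2.86, against 0.31 for all kept genes. The rescaling shifted the median of all genes by -0.25 in V6.5 cells over MEFs and by -0.32 in iPSCs over MEFs, and left all 9 genes below 0 in both. As the ratios over MEFs share the MEF library, the values of iPSCs and V6.5 cells are given side by side only.

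**Figure D2:**
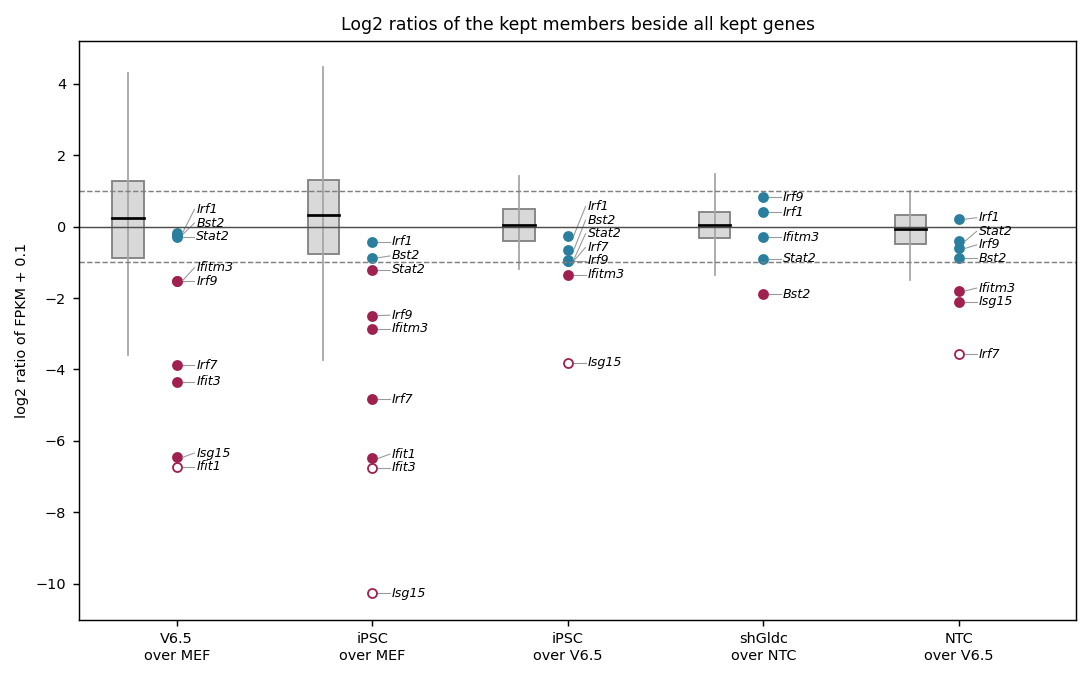
Log2 ratios of FPKM + 0.1 for the kept members (circles) in the 5 comparisons, with grey boxes for the middle 50% of all kept genes, grey lines from the 5th to the 95th percentile, and black bars at the median. Red circles are at least 2-fold lower, blue circles within 2-fold (dashed lines), and open circles have 1 library listed at 0, so their height depends on the 0.1 added; in both comparisons with MEFs all 9 members lay below 0.

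Markers of other cell types differed between the same libraries. The percentages of MEF levels for NTC and shGldc cross the separately made tables. MEFs expressed 15 of 16 macrophage and leukocyte markers at an FPKM of at least 1, with Lyz2 at 141.7 and C1qa at 52.7, and these markers summed to 376.9 FPKM. In the stem cell libraries the sum was 35 to 167.0, of which Laptm5 alone held 20.3 to 144.6, and C1qc and Tyrobp were at 0 in all 4. C1qa and Lyz2 were at 0.197 and 1.59 FPKM in untreated V6.5 cells, and at 0 in NTC and shGldc. Cd68, a lysosomal protein, was at 18.7 FPKM in MEFs and 9.04 to 19.9 in stem cells, and Ptprc was at 0.651 in MEFs, 0.331 in NTC, and 0.48 in shGldc. Of the 6 endothelial markers, 2 reached 1 FPKM in MEFs (Emcn and Kdr), and their sum was 12.2 FPKM there and 15.7 to 38.3 in stem cells, most of it Pecam1, which embryonic stem cells express. In untreated V6.5 cells, all 10 fibroblast markers were detected, at 0.559% (Col1a1) to 5.28% (Pdgfra) of their MEF level, with a median of 1.56%. Over the same range lay Isg15, at 1.06% of its MEF level, and Ifit3, at 4%, whereas Ifit1 was listed at 0, Irf7 was just above the range at 6.24%, and Irf9 (34.3%), Ifitm3 (35.1%), Stat2 (82.1%), Bst2 (85.9%), and Irf1 (89%) were well above it. The fibroblast median was 0.0845% in iPSCs, 0.0219% in NTC, and 0.0157% in shGldc, with 1, 4, and 4 of the 10 markers at 0. The part of macrophages in the MEF values, and of fibroblast RNA in the V6.5 values, was not tested. In bulk RNA, fewer cells that express a gene and less RNA per cell cannot be told apart.

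**Figure D3:**
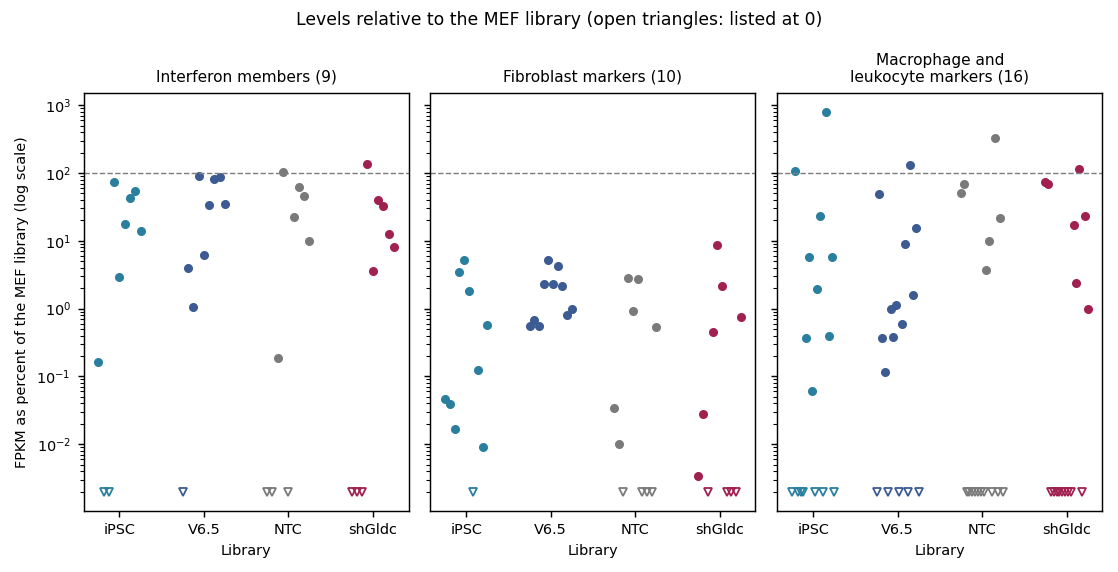
FPKM in each stem cell library as a percent of the MEF library (log scale, dashed line at 100%), with 1 point per gene for the 9 members, 10 fibroblast markers, and 16 macrophage and leukocyte markers; open triangles mark genes listed at 0. In untreated V6.5 cells all fibroblast markers were detected, at up to 5.28%, and 5 members were above 30%.

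The wider pathway was read from lists of 115 other genes. None of the 20 interferon genes themselves reached 1 FPKM in any library, and all were listed at 0 except Ifna16, at 0.00242 FPKM in NTC. Of the 115 genes, which include these 20, 81 were kept for V6.5 cells over MEFs. Of the 81, 47 (58%) were at least 2-fold lower and 10 higher, with a median of -1.39. For iPSCs over MEFs, 82 were kept, 55 (67.1%) were lower and 12 higher, and the median was -1.74. Both lower shares are above the 23.3% and 21.3% of all genes.

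Receptors and kinases were lower as a group. In both V6.5 cells and iPSCs, 7 of 9 were at least 2-fold lower than in MEFs. Ifnar1 was at 11.1 FPKM in MEFs and at 4.08 to 6.73 in stem cells, and Ifnar2 at 13.6 and at 3.85 to 4.42. The type II receptor chain Ifngr2 was at 33.1 FPKM in MEFs and at 2.8 to 5.27 in stem cells, and Ifngr1 was at 16.5 and at 1.82 to 3.88. Il10rb, the shared chain of the type III receptor, was lower in V6.5 cells (-2.80) and iPSCs (-2.55), as were Jak1 (-1.64 and -1.43) and Jak2 (-2.33 and -2.22). Against this direction, Ifnlr1, the specific chain of the type III receptor, was at 0.086 FPKM in MEFs, 2.32 in iPSCs, and 1.45 in untreated V6.5 cells. Tyk2 was at least 2-fold higher in iPSCs (16 FPKM, 1.19) and within 2-fold in V6.5 cells (13.4 FPKM).

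Irf2, a repressor that competes with Irf1, was lower in stem cells (-3.73 in V6.5 cells and -2.26 in iPSCs over MEFs), and Irf3, the factor first activated by nucleic acid sensing, was at 17.1 to 22.2 FPKM in every library. Stat3, which LIF activates, was lower in V6.5 cells (-1.35). Irf5 and Irf8 were within 2-fold in both.

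Of the sensors and adaptors, 12 of 15 were kept, and 7 were at least 2-fold lower in V6.5 cells and 9 in iPSCs. Tmem173 (Sting), the adaptor of DNA sensing, was at 29.5 FPKM in MEFs, 2.84 in iPSCs, and 1.34 in untreated V6.5 cells. The RNA sensor Ifih1 (Mda5) was at 2.57 FPKM in MEFs and at or near 0 in every stem cell library, and Ddx58 (Rig-I) was at 13.3, 3.13, and 3.97 FPKM in MEFs, iPSCs, and V6.5 cells. Zbp1 and Ikbke were lower in both, as were Myd88 and Ticam1, and Dhx58 and Traf3 were lower in iPSCs. The adaptor Mavs was at 8.93 to 14.3 FPKM in all 5 libraries, and Tbk1, the kinase that activates Irf3, at 5.37 to 11.7. Mb21d1 (cGas) was at 0.788 to 1.54 FPKM.

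Negative regulators went both ways. Socs3, an inhibitor of Jak kinases that LIF induces, was at 10.3 FPKM in MEFs, 91.3 in iPSCs, and 85.7 in untreated V6.5 cells (log2 ratios over MEFs of 3.14 and 3.04). Trim28, a corepressor that silences endogenous retroviruses, was at 156.0, 817.9, and 637.7 FPKM, and the phosphatase Ptpn6 was higher as well (1.94 and 2.28). Usp18, which removes Isg15 from proteins and blocks the type I receptor, was at 19.4 FPKM in MEFs, 0.0802 in iPSCs, 0.748 in untreated V6.5 cells, and 0 in NTC and shGldc. Irf2bp2 was lower in both comparisons (-1.69 and -1.33), and Socs1, Ptpn2, Pias1, and Irf2bp1 were within 2-fold in both.

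The enzymes that attach Isg15 were low beside it. Uba7, the activating enzyme, was at 4.96 FPKM in MEFs and at 0 to 0.104 in stem cells, and the ligase Herc6 was at 1.23 in MEFs and at 0 to 0.141. Ube2l6, the conjugating enzyme, did not share this order. Its FPKM was 20.4 in MEFs, 70.8 in iPSCs, 10.4 in untreated V6.5 cells, 23.3 in NTC, and 35.1 in shGldc.

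Ifitm1, next to Ifitm3 in the same cluster, had the opposite order between MEFs and stem cells. It was at 1.98 FPKM in MEFs, 26.5 in iPSCs, 58 in untreated V6.5 cells, 38.9 in NTC, and 21.5 in shGldc, a log2 ratio over MEFs of 3.68 in iPSCs and 4.80 in V6.5 cells. Only 1.4% of its 50-nt stretches occur in Ifitm3. Ifitm2 was abundant in every library, from 210.3 FPKM in shGldc to 465.9 in untreated V6.5 cells, and 48.5% of its stretches occur in other genes. Ifitm5 was at 1.47 FPKM in iPSCs and 0.0859 in MEFs.

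Of 45 other interferon-stimulated genes, 39 were kept in each comparison with MEFs. In V6.5 cells 26 were at least 2-fold lower and 4 higher, with a median of -1.92, and in iPSCs 33 were lower and 3 higher, with a median of -2.42. Lgals3bp was at 114.4 FPKM in MEFs, 0.393 in iPSCs, and 5.21 in untreated V6.5 cells, and Ifi27 at 74.9, 0.145, and 7.45. Mx2, an inhibitor of virus replication, was at 2.89 FPKM in MEFs and listed at 0 in the other 4 libraries. The 3 higher in iPSCs were Pml, the organizer of nuclear bodies, at 20.6, 64.7, and 71.3 FPKM, Phf11d (1.22 in iPSCs and 2.09 in V6.5 cells), and the oligoadenylate synthetase gene Oas3 (1.48 and 2.32). In V6.5 cells, Oas1c was the fourth (1.71). Adar, the RNA editing enzyme, stayed at 12.1 to 15.3 FPKM in all 5 libraries.

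**Figure D4:**
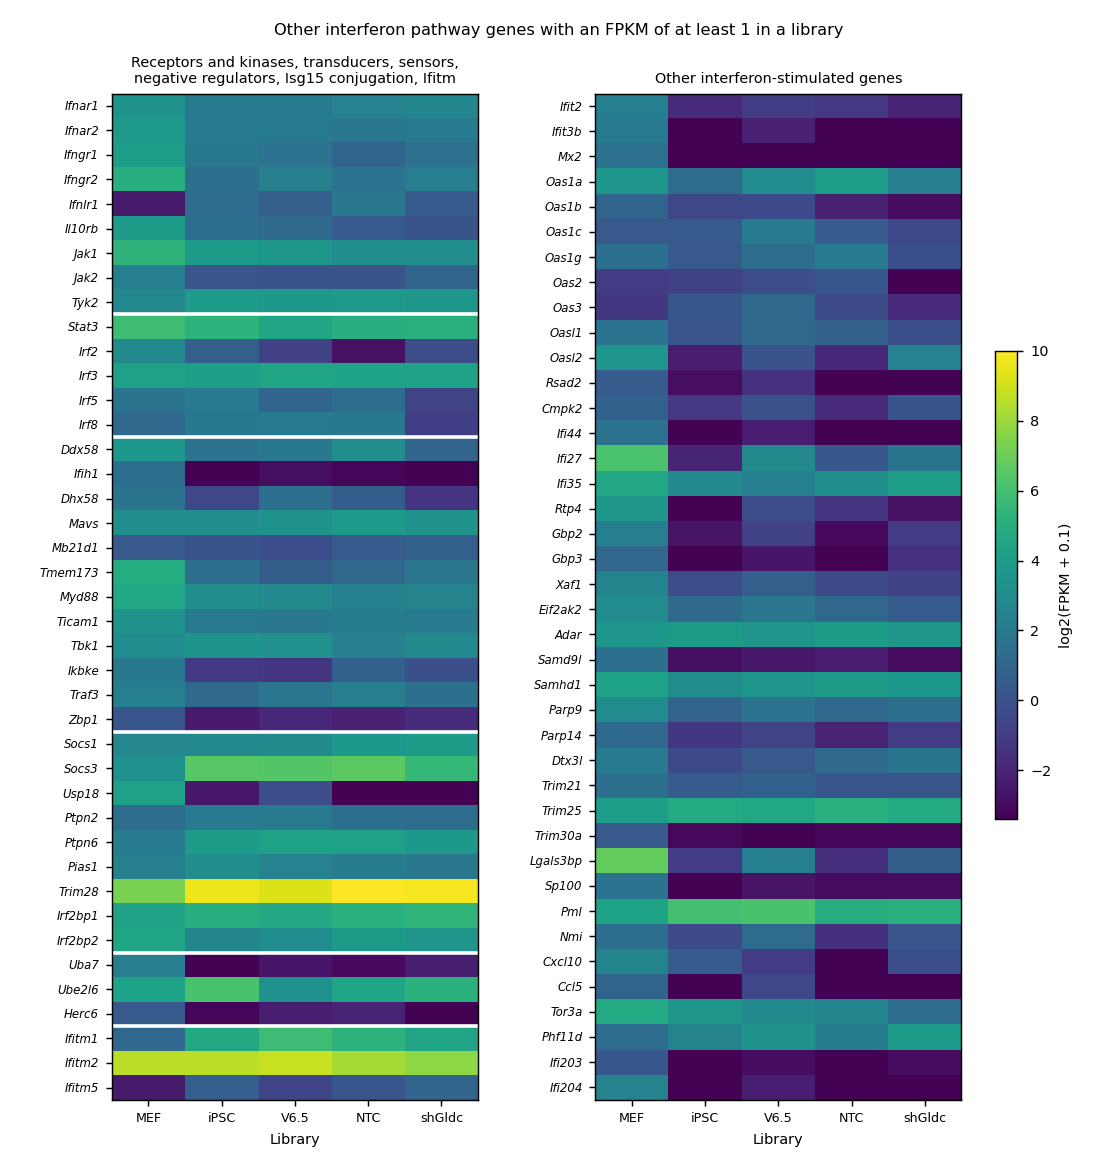
Log2(FPKM + 0.1) in each library (columns) for the other interferon pathway genes reported here that reached 1 FPKM in any library (rows), where yellow is high and dark purple is 0. White lines part, from the top left, receptors and kinases, other transducers, sensors, negative regulators, Isg15 conjugation, and the Ifitm family; the right panel holds the other interferon-stimulated genes, most of which were darker in the 4 stem cell libraries than in MEFs, with exceptions such as Pml and Adar.

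Between the iPSC and untreated V6.5 libraries, the 7 genes kept were all lower in iPSCs. Of these, 2 were at least 2-fold lower and none was higher, where 7.44% of 12323 genes were lower and 10.1% higher. Ifitm3 was 2.54-fold lower in iPSCs (-1.34), and Isg15 was listed at 0 in iPSCs against 1.3 FPKM in V6.5 cells. Isg15 and Irf7 were kept through V6.5 cells alone, so both could only be lower. Irf7 (-0.96), Irf9 (-0.96), and Stat2 (-0.92) lay just inside the 2-fold line, followed by Bst2 (-0.65) and Irf1 (-0.25). After the same rescaling, Irf7 (-1.01) and Irf9 (-1.02) lay just outside it. Ifit1 and Ifit3 were below 1 FPKM in both libraries and were not compared. The median of the 7 was -0.96, against 0.04 for all kept genes.

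Among the other pathway genes, 57 were kept, 9 (15.8%) were at least 2-fold lower in iPSCs and 6 (10.5%) higher, against 7.44% and 10.1% of all genes, and the median was -0.10. The share higher was near that of all genes. Lower genes were mostly interferon-stimulated ones (7 of 21), among them Ifi27 (-4.95), Lgals3bp (-3.43), and Oas1a (8.31 FPKM in V6.5 cells and 2.38 in iPSCs). Ube2l6 (2.75), the chemokine gene Cxcl10 (1.54), Irf2 (1.48), Ifitm5 (1.23), Irf5 (1.19), and Tmem173 (1.03) were higher. Of the 8 fibroblast markers kept, 5 were at least 2-fold lower in iPSCs, with Col1a1 at 20.5 FPKM in V6.5 cells and 1.68 in iPSCs, and the fibroblast sum was 53.5 against 14.6. The part of that difference in the lower members was not tested.

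The knockdown comparison asked which genes differ when Gldc is suppressed in V6.5 cells. Of the 9 genes, 5 were kept, 1 was at least 2-fold lower in shGldc, and none was higher, where 7.68% of 11969 genes were lower and 8.97% higher. The 1 was Bst2, at 108.3 FPKM in NTC and 29.1 in shGldc, 3.73-fold lower (-1.89). Stat2 was at 11.9 and 6.3 FPKM (-0.90), Ifitm3 at 69.2 and 56.2 (-0.30), Irf1 at 10.7 and 14.2 (0.41), and Irf9 at 4.95 and 8.9 (0.83), so the others lay within 2-fold on both sides of 0. The median of the 5 was -0.30, against 0.04 for all kept genes. The robust SD of the log2 ratio over all kept genes was 0.53.

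Ifit1 and Ifit3 were listed at 0 in both libraries, and Isg15 (0.228 and 0 FPKM) and Irf7 (0 and 0.617) were below 1 FPKM in both, so they were not compared. For Irf7, the value in shGldc corresponds to about 34.0 fragments and none were counted in NTC. Without the filter, Irf7 would count as higher and Isg15 as lower, which makes 1 higher and 2 lower. Of all genes, 8.17% were then higher and 7.54% lower. The calls of Irf7 and Isg15 are against a library listed at 0, so they depend on the 0.1 added.

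NTC differed from untreated V6.5 cells as well, although this contrast crosses the separately made tables. Of 7 members kept, 3 were at least 2-fold lower in NTC and none was higher, where 10.3% of 12048 genes were lower and 4.99% higher, and the median was -0.89, against -0.06 for all. Ifitm3 was 3.48-fold lower in NTC (-1.80), Isg15 was at 1.3 and 0.228 FPKM, and Irf7 was at 1.08 and listed at 0. Isg15 and Irf7 were kept through untreated V6.5 cells alone, so both could only be lower. At an FPKM of at least 5, 1 of 5 members was lower, against 6.24% of all genes. Bst2 was at 200.9 FPKM in untreated V6.5 cells and 108.3 in NTC (-0.89). The 8 fibroblast markers kept had a median of -4.04 in the same contrast, with 5 at least 2-fold lower in NTC, and their part was not tested. Set against untreated V6.5 cells instead of NTC, 4 of 7 members were at least 2-fold lower in shGldc, where 13.9% of 12237 genes were lower and 9.89% higher, again across the tables. These were Isg15, Bst2 (6.91-fold, -2.78), Ifitm3 (4.28-fold, -2.10), and Stat2 (2.51-fold, -1.32). Isg15 and Irf7 were again kept through untreated V6.5 cells alone. Of 9 fibroblast markers kept in this contrast, 6 were also at least 2-fold lower, with a median of -4.14. Of 3 macrophage and leukocyte markers kept, 1 was lower, Lyz2, at 1.59 FPKM in V6.5 cells and listed at 0 in shGldc. Cd68 (9.04 and 12.7 FPKM) and Laptm5 (24 and 20.3) were within 2-fold. The part of fibroblast and macrophage RNA in these values was not tested.

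Other pathway genes differed in both directions in shGldc over NTC. Of 57 kept, 10 (17.5%) were at least 2-fold lower and 6 (10.5%) higher, against 7.68% and 8.97% of all genes, and the median was -0.03. The share higher was near that of all genes. The lower genes included the RNA sensors Ddx58, at 8.85 FPKM in NTC and 1.87 in shGldc (-2.19), and Dhx58 (-1.93). Irf8, best known from myeloid cells, was at 3.9 and 0.424 FPKM (-2.93), and Irf5 was also lower (-2.11). The oligoadenylate synthetase genes Oas1a (17.2 and 4.92 FPKM, -1.78) and Oas1g (4.16 and 0.828, -2.20) were lower, but 57.6% of the 50-nt stretches of Oas1a occur in Oas1g, so they are not separate observations. Oas2 was at 1.1 FPKM in NTC and listed at 0 in shGldc, and Ifnlr1 (-1.51), Tor3a (-1.30), and Socs3 (98.8 and 45.9 FPKM, -1.11) completed the 10.

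The higher genes included Oasl2, Lgals3bp, Nmi, Phf11d, and Ifi27. Oasl2, a member of the synthetase-like family, was at 0.165 FPKM in NTC and 5.82 in shGldc (4.48), beside 12 in MEFs, 0.0938 in iPSCs, and 0.928 in untreated V6.5 cells. Phf11d was at 4.76 and 16.2 FPKM (1.75), beside 11.1 in untreated V6.5 cells. Lgals3bp (2.16), Nmi (1.77), and Ifi27 (1.54) were each below 4 FPKM in both libraries. Untreated V6.5 cells, in the other deposited table, were above both libraries for these genes, at 5.21, 2.33, and 7.45 FPKM. Among other interferon-stimulated genes, 5 of 20 were higher and 4 lower. Of 10 sensors and adaptors kept, 2 were called, both lower, and 4 lay above 0. Of 9 receptors and kinases kept, 1 was called, as lower, and 6 lay above 0. Beside these, all 10 pluripotent cell markers were within 2-fold, with a median of -0.49 and 9 of 10 below 0, the fibroblast sum was 12.3 FPKM in NTC and 6.73 in shGldc, the endothelial sum was 22 and 31.5, and the macrophage sum was 74.3 and 35, most of it Laptm5 (59.3 and 20.3), with C1qa, C1qb, C1qc, Csf1r, and Lyz2 at 0 in both. Cd68 was at 13 and 12.7 FPKM, and Ptprc (0.331 and 0.48), Cd14 (0.537 and 0.942), and Itgam (0.456 and 0.501) were detected in both below 1 FPKM. Against the direction of the fibroblast sum, Pdgfra was higher in shGldc (0.143 and 1.36 FPKM), and of the endothelial markers Tie1 was higher (0.188 and 3.09 FPKM).

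**Figure D5:**
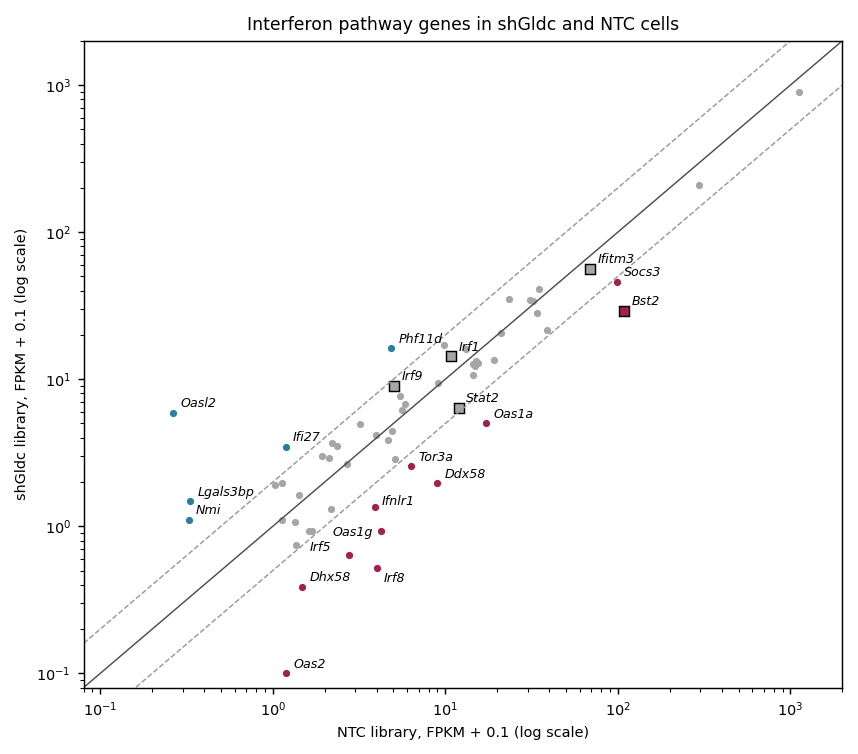
FPKM + 0.1 in NTC (horizontal, log scale) and shGldc (vertical, log scale) for the kept interferon pathway genes reported here, with squares for the 5 members and circles for other genes, red where at least 2-fold lower, blue where higher, and grey within 2-fold (dashed lines; solid line, equal levels). Bst2 is the only member outside the 2-fold lines, and other pathway genes lie outside them on both sides, with Oasl2 farthest above and Oas2 and Irf8 farthest below.

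The mean profile of the 9 genes was the mean over genes of their log2(FPKM + 0.1), each centred over the 5 libraries. It was 3.01 in MEFs, 0.22 in untreated V6.5 cells, -1.01 in iPSCs, -1.07 in NTC, and -1.15 in shGldc. Ifitm3 lay nearest to it, with a root mean square difference of 0.46, and Isg15 (2.27) and Irf1 (1.63) lay farthest. Of 13656 genes that reached 1 FPKM in any library, the 5 nearest outside the members were Hspb7 (0.09), Ereg (0.09), Adra1b (0.10), Ccl3 (0.14), and Copz2 (0.16), over 5 libraries. Each of these 5 lay nearer to the mean than any member did. The first 4 were at 1.48 to 2.03 FPKM in MEFs and at 0.181 or less in stem cells. Their log2 values in stem cells therefore depend largely on the 0.1 added. Copz2, a coatomer subunit, was at 102.1 FPKM in MEFs and 5.15 to 11.6 in stem cells.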

How the data were processed

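The authors extracted total RNA, had it sequenced as 1 library per group on an Illumina instrument, mapped reads to mm10 with TopHat2 2.1.0, assembled transcripts with StringTie 1.3.4d, and computed expression with Ballgown. They deposited FPKM values in 2 separately made tables, of 3 and 2 libraries. The submitters' processing notes also name mm9. The annotation, strand setting, and filters are not given in the sources used here. Ratios, filter, and the 2-fold rule are defined in the text. The members and gene lists were chosen with earlier results of these data known.

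Named genes were the 9 members, Gldc, the highest and lowest kept genes of each list, listed pathway genes that reached 1 FPKM in any library, and the 5 nearest profiles; Ifit3b, Lgals3bp, and further called or marker genes were named after their values were seen. Shared sequence was the share of 50-nt stretches found in other genes of GENCODE M21, whose mm10 positions are printed. A listed 0 allows up to 3 fragments, for counting error only. Rnf213 of the lists was not in the tables, and some single genes of the lists, which the list counts include, are not reported here. Alternatives were a pseudocount of 1 or 0.01, rescaled or centred libraries, a filter at 5 FPKM or none, and another stem cell library as V6.5 cells or control. The ratio and count steps were tested on simulated data. Python 3.11.15, numpy 2.4.6, pandas 2.3.3, and matplotlib 3.10.9 were used.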

Additional observations from a re-analysis of the deposited data

Results flagged for a closer look

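Ube2l6, the conjugating enzyme of Isg15, lay on opposite sides of MEFs in the pair of stem cell libraries of the same table. Its log2 ratio over MEFs was 1.79 in iPSCs and -0.96 in untreated V6.5 cells, the latter within 2-fold. With 1 library per group, this difference was not tested.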

How the results depend on the processing

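The counts, medians, and single ratios of the members were recomputed under the alternatives, and the other lists, markers, and the mean profile were not. With NTC in place of untreated V6.5 cells, which crosses the tables, 7 of 9 members were lower than in MEFs, against 25.7% of all genes. The median of the 9 was -3.31. Between iPSCs and V6.5 cells, 4 of 7 members were lower after rescaling to the same FPKM sum, against 8.38% of all genes. At an FPKM of at least 5, 1 of the 5 kept was lower, against 5.93%. In shGldc over NTC, no filter gave 1 higher and 2 lower of 9, against 8.17% and 7.54% of all genes. Untreated V6.5 cells in place of NTC gave 4 of 7 lower, against 13.9%, and a median of -1.32. In NTC over V6.5 cells, 1 of 5 was lower at an FPKM of at least 5, against 6.24%. The cause was not tested, apart from the fewer or more genes that a filter keeps. No called value changed sign, and Irf1 over MEFs, within 2-fold, went from -0.17 to 0.05 with NTC in place of V6.5 cells. Of 232 recomputed ratios of single genes, 206 moved by less than 0.59, the robust SD over all genes of NTC against V6.5 cells, and 26 by more. Of these, 11 came from a pseudocount of 1 and 6 from one of 0.01. With a pseudocount of 1, Isg15 in NTC over V6.5 cells was within 2-fold (-0.91). No paired analysis was possible because each group is 1 library, and for the same reason none could be left out. Depth limits Isg15, Ifit1, Ifit3, and Irf7 in stem cells. The largest estimate among them was 51.2 fragments, for Irf7 by the length of 1 of its transcripts.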

Other observations

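The rank of each member among the 24421 genes shows how unlike their abundance was. In MEFs, Ifitm3 ranked 105, Bst2 297, and Isg15 608 by FPKM. In shGldc, Ifitm3 ranked 1675 and Bst2 2978. In untreated V6.5 cells, Ifitm3 ranked 321 and Bst2 407, beside Gldc at 1480. Ifit1 and Ifit3, both near 10 FPKM in MEFs, ranked only 5433 and 5374 there. The members summed to 1133.9 FPKM in MEFs, 242.8 in iPSCs, 476.9 in untreated V6.5 cells, 205.2 in NTC, and 115.3 in shGldc, and Bst2 and Ifitm3 carried most of each sum.

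ISRE matches were also counted in the promoters of the other pathway genes. Of 94 genes matched in RefSeq, 34 held the ISRE letters and 26 the GAS letters in at least 1 promoter window, against 3.44% and 8.3% of all promoters. A gene with several start sites has several windows, so these counts are per gene and the background is per window.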
